A study of Parachlorella kessleri with 6 samples.

Results

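The enzymes that remove superoxide and peroxides, and the enzymes that make, recycle and use glutathione, were followed in the unicellular green alga Parachlorella kessleri. Members were taken from the annotated gene table of a transcriptome assembled without a genome. A row was a member when its best Swiss-Prot match was named for one of these enzymes, or when its Pfam domains included GST_N, GST_C, AhpC-TSA or Redoxin, and rows for tRNA ligases and elongation factors were left out. This gave 82 members among 22972 rows, of which 50 matched by name only, 24 by domain only and 8 by both. The names are therefore those of the closest described protein, often in a land plant, an animal or a bacterium. In the non-redundant protein database the closest match was to a Chlorella species for 28 members and to Coccomyxa subellipsoidea for 11, both green algae.

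The study grew the alga under control conditions or under salt stress and sequenced RNA from 3 libraries of each at 2 days. The strain is given only as the species, both groups carry no other treatment in the labels, and the salt and its concentration are not given. The labels do not say whether the replicates were separate cultures, so each p-value measures the spread between these libraries, which may be technical.

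Superoxide dismutases turn superoxide into oxygen and hydrogen peroxide. The peroxide is then removed by catalase, which needs no reductant and sits mostly in peroxisomes, by ascorbate peroxidase, by peroxiredoxins that draw on thioredoxin, or by glutathione peroxidases. Ascorbate is restored by monodehydroascorbate and dehydroascorbate reductases, and glutathione by glutathione reductase at the expense of NADPH. In photosynthetic cells these routes run in the chloroplast as well as in the cytosol and mitochondria. Glutathione also feeds the glutathione S-transferases, the glyoxalases that detoxify methylglyoxal, and the route that oxidises formaldehyde.

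Libraries held 16460455 to 24065705 counts assigned to rows, so 1 count was worth 0.0436 to 0.0629 CPM, the count scaled to library size. Levels below are CPM scaled by TMM, a library scaling that assumes most genes do not change, and are listed for replicates 1, 2 and 3 in turn. Changes are log2 fold changes of salt over control with their standard errors (SE), and a row was called raised or lowered at a Benjamini-Hochberg adjusted p under 0.05 in edgeR's quasi-likelihood test over all 11438 rows that passed a filter on low counts. The control replicate 1 library stood apart from the other controls: its counts differed from theirs by a chi-square per gene of 150 to 175, against 5.28 between control replicates 2 and 3. Between salt libraries it was 33.8 to 59.3, so control replicates 2 and 3 were the most alike of the pairs within a group. Fits without control replicate 1 take their control spread from that close pair. Among the tested members the level in control replicate 1 was at least 1.5 times that of the other controls in 14 and at most 1/1.5 of it in 6. Of all tested rows 12.4% were at least 1.5 times higher there, and the share at most 1/1.5 was not counted. What sets this library apart was not tested. Row names are given without the shared prefix TRINITY_, and rows with the same DN number and c number form one Trinity cluster, a set of assembled sequences that the assembler grouped together.

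Of the 82 members, 69 passed the filter. Salt raised 22 of them, where 29.1% of all tested rows were raised, and lowered 29, where 28.7% of all tested rows were lowered. In all 51 were called, where 57.8% of all tested rows were, and 18 were not. Past a change of at least 2-fold the counts were 12 raised, against 15.9% of all tested rows, and 16 lowered, against 17.7%. One raised row, DN4604_c1_g8, passed the filter only through its salt libraries, and without it 21 members were raised, 11 of them at least 2-fold. The median log2 fold change of the tested members was -0.06, and that of all tested rows was 0.01. The 3 salt libraries all lay above the 3 controls for 25 members and all below for 34, where 34.1% and 32.6% of all tested rows did so. Without overlap in either direction were 59 members, where 66.7% of all tested rows were. DN4604_c1_g8 is also among the 25, the 59 and the 51 called. These levels are shares of the counts in each library, so they do not show whether the absolute amount of a transcript changed.

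Counts were also taken by role, to be read beside the 29.1% raised and 28.7% lowered among all tested rows. The 8 rows named for ascorbate peroxidase, glutathione peroxidase, glutathione reductase and the enzymes of glutathione synthesis, put together after their values were seen, were all lowered. Because of that choice their agreement is not a test, and the set leaves out the monodehydroascorbate reductase row, which was raised. Among 6 tested peroxiredoxin rows 3 were raised and 1 was lowered, and among 9 rows matched by a redoxin-type domain and not by name 6 were raised and 2 lowered. Among 15 rows matched by a glutathione S-transferase domain and not by name 3 were raised and 9 lowered. When libraries were scaled by their totals, 7 of the 8 calls of the set put together above were kept. That scaling moved the median of all tested rows from 0.01 to 0.20, changed the split over all rows from 3331 raised and 3285 lowered to 4064 and 2658, and gave 25 raised and 25 lowered members.

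**Figure D1:**
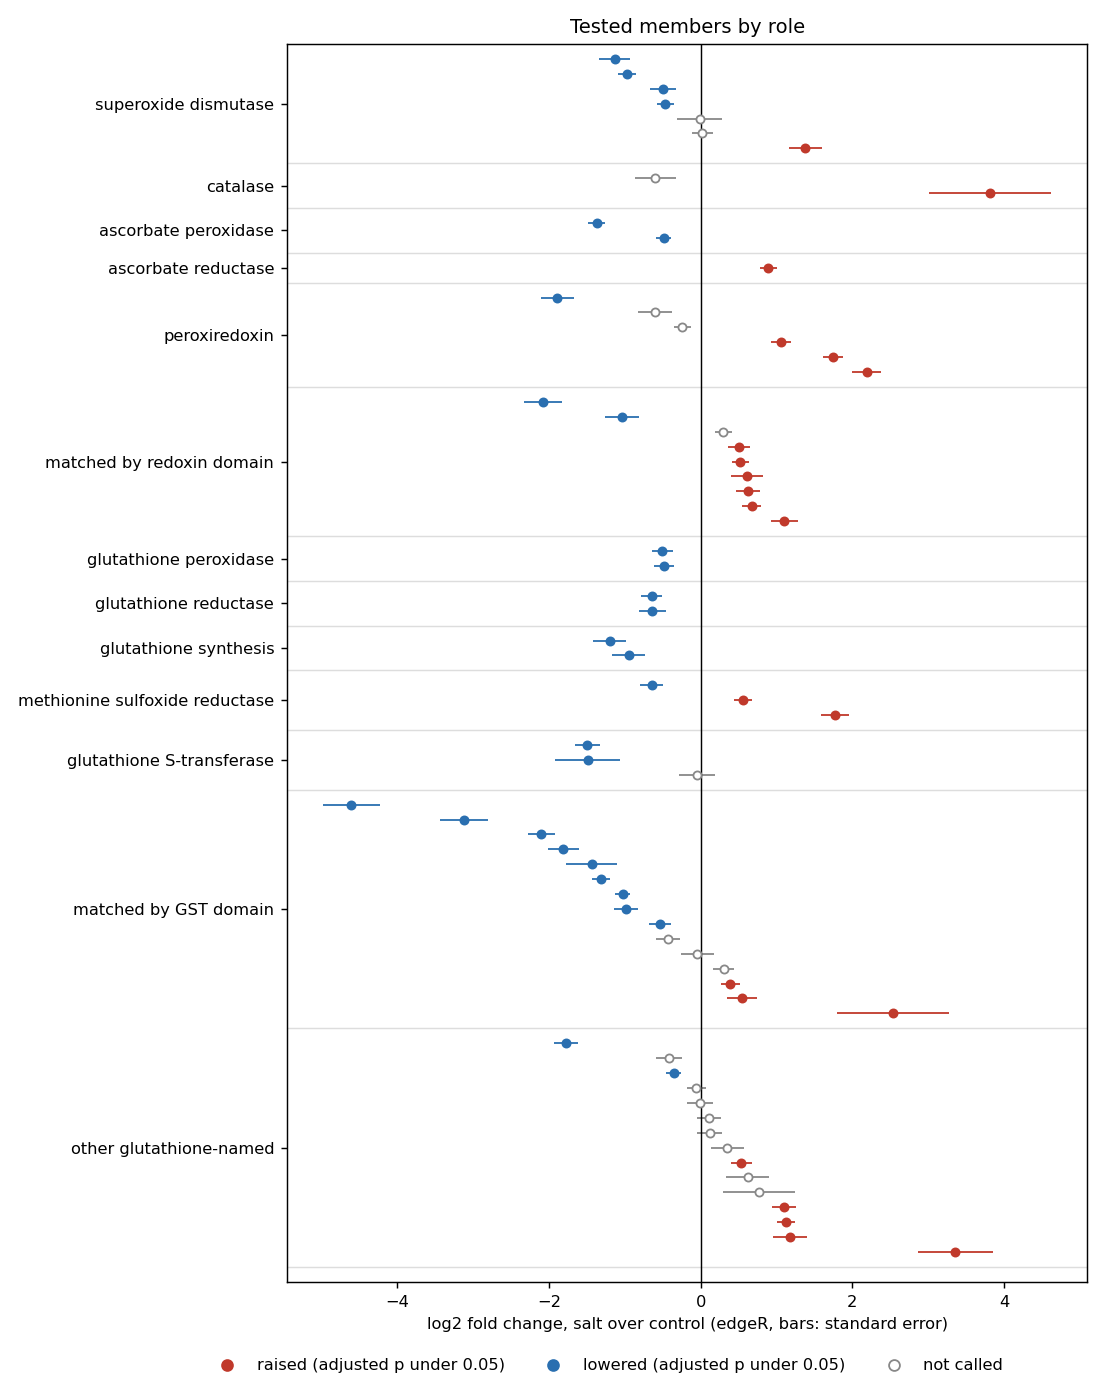
Each point is 1 of the 69 tested members, placed by its log2 fold change of salt over control on the horizontal axis with its standard error, and grouped by role. The rows of ascorbate peroxidase, glutathione peroxidase, glutathione reductase and glutathione synthesis, roles picked out after their values were seen, lie below 0. Catalase lies at -0.60 and 3.81.

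Superoxide dismutase was matched by 9 rows, of which 7 were tested: 1 was raised, 4 were lowered and 2 were not called, at -0.01 and 0.02. The raised row, DN5865_c3_g2, matches a manganese enzyme. Its level was 408, 252 and 260.0 CPM in control and 739.8, 854 and 799 CPM in salt. The groups did not overlap, and the change was 1.38 (SE 0.21, adjusted p = 0.00157). This row has an effective length of 7529 bases and also carries domains of a mitochondrial ribosomal protein and a nucleotide-diphospho-sugar transferase family, so its reads cannot be divided among them. The other rows matching manganese enzymes were lowered. DN4194_c0_g1 stood at 575, 398 and 399 CPM in control and 334, 317 and 318 CPM in salt, a change of -0.50 (SE 0.17, adjusted p = 0.0413). Its control replicate 1 was the highest library, and the call was lost without salt replicate 1, 2 or 3 (adjusted p = 0.0808, 0.121 and 0.127), with library totals (-0.30, adjusted p = 0.0913) and with no filter on low counts (0.0849). DN5869_c3_g1, whose only listed Pfam domain is GYF and not one of a dismutase, changed by -1.14 (SE 0.20, adjusted p = 0.00258). DN3789_c0_g1, which lists no Pfam domain, changed by -0.47 (SE 0.12, adjusted p = 0.0121), a call lost without salt replicate 2 (0.0522) or 3 (0.0605). The tested row named in Swiss-Prot for an iron enzyme, the type found in chloroplasts, was DN4664_c2_g6. It measured 130.4, 112 and 118 CPM in control and 68.1, 59.4 and 57.2 CPM in salt, with no overlap and a change of -0.97 (SE 0.12, adjusted p = 0.000556), and it also carries RING-type zinc finger domains. DN4664_c2_g8 of the same cluster also matches an iron enzyme in the non-redundant protein database. It is the row that was not called at 0.02.

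Catalase gave the largest rise among the tested members. DN5788_c1_g5, which best matches Arabidopsis catalase-3 and carries both catalase domains, stood at 138, 21.8 and 21.3 CPM in control and at 1091, 689 and 767 CPM in salt. The lowest salt library was well above the highest control, and control replicate 1 was far above the other controls. The mean rose from 60.3 ± 67.2 to 849 ± 213 CPM (SD, n = 3), which is 3.81 on the log2 scale (SE 0.81, adjusted p = 0.00597). Without control replicate 1 the change was 5.31 (adjusted p = 2.96e-05), or 39.6-fold. Within the replicate 1 pair it was 2.98 and within replicates 2 and 3 it was 5.09. A neighbouring row of the same cluster, DN5788_c1_g4, is named catalase but lists no Pfam domain. It measured 1136, 602 and 630.1 CPM in control and 490.2, 599.7 and 473 CPM in salt. All salt libraries were below all controls, salt replicate 2 only just, and the row was not called in edgeR (-0.60, SE 0.27, adjusted p = 0.0953), while DESeq2's Wald test gave an adjusted p of 0.0484. Summed, the pair stood at 1274, 624 and 651 CPM in control and 1582, 1288 and 1240 CPM in salt. The sums overlapped, since control replicate 1 was above salt replicate 3. The part of that sum held by DN5788_c1_g5 was 10.8%, 3.50% and 3.27% in the controls and 69.0%, 53.5% and 61.9% in salt. All rows of the cluster together, among them a sulfite reductase row, changed by 0.78 (adjusted p = 0.0213). The other 2 catalase rows held too few counts to be tested.

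Both ascorbate peroxidase rows were lowered. DN4216_c0_g1, matching ascorbate peroxidase 6, stood at 409, 349 and 365 CPM in control and at 144, 147 and 145 CPM in salt. The 3 salt libraries agreed closely, at a mean of 145 ± 1.71 CPM (SD, n = 3), and none reached the controls. The change was -1.37 (SE 0.11, adjusted p = 0.000116), and the row also carries a papain-type peptidase domain with its inhibitor domain. DN5730_c0_g1, matching the peroxisomal-type ascorbate peroxidase 4, measured 108, 102 and 103 CPM in control and 75.8, 74.3 and 73.2 CPM in salt. It changed by -0.49 (SE 0.09, adjusted p = 0.00367) with no overlap, and limma on the deposited FPKM gave an adjusted p of 0.0946. Monodehydroascorbate reductase, which restores ascorbate from its radical, went the other way. DN5308_c4_g1 stood at 116, 123 and 114 CPM in control and at 193, 226 and 235 CPM in salt, without overlap. The change was 0.89 (SE 0.12, adjusted p = 0.000705). Its summed cluster fell by 0.42 on the log2 scale (adjusted p = 0.00894), and that cluster holds a row without description that changed by -2.27.

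**Figure D2:**
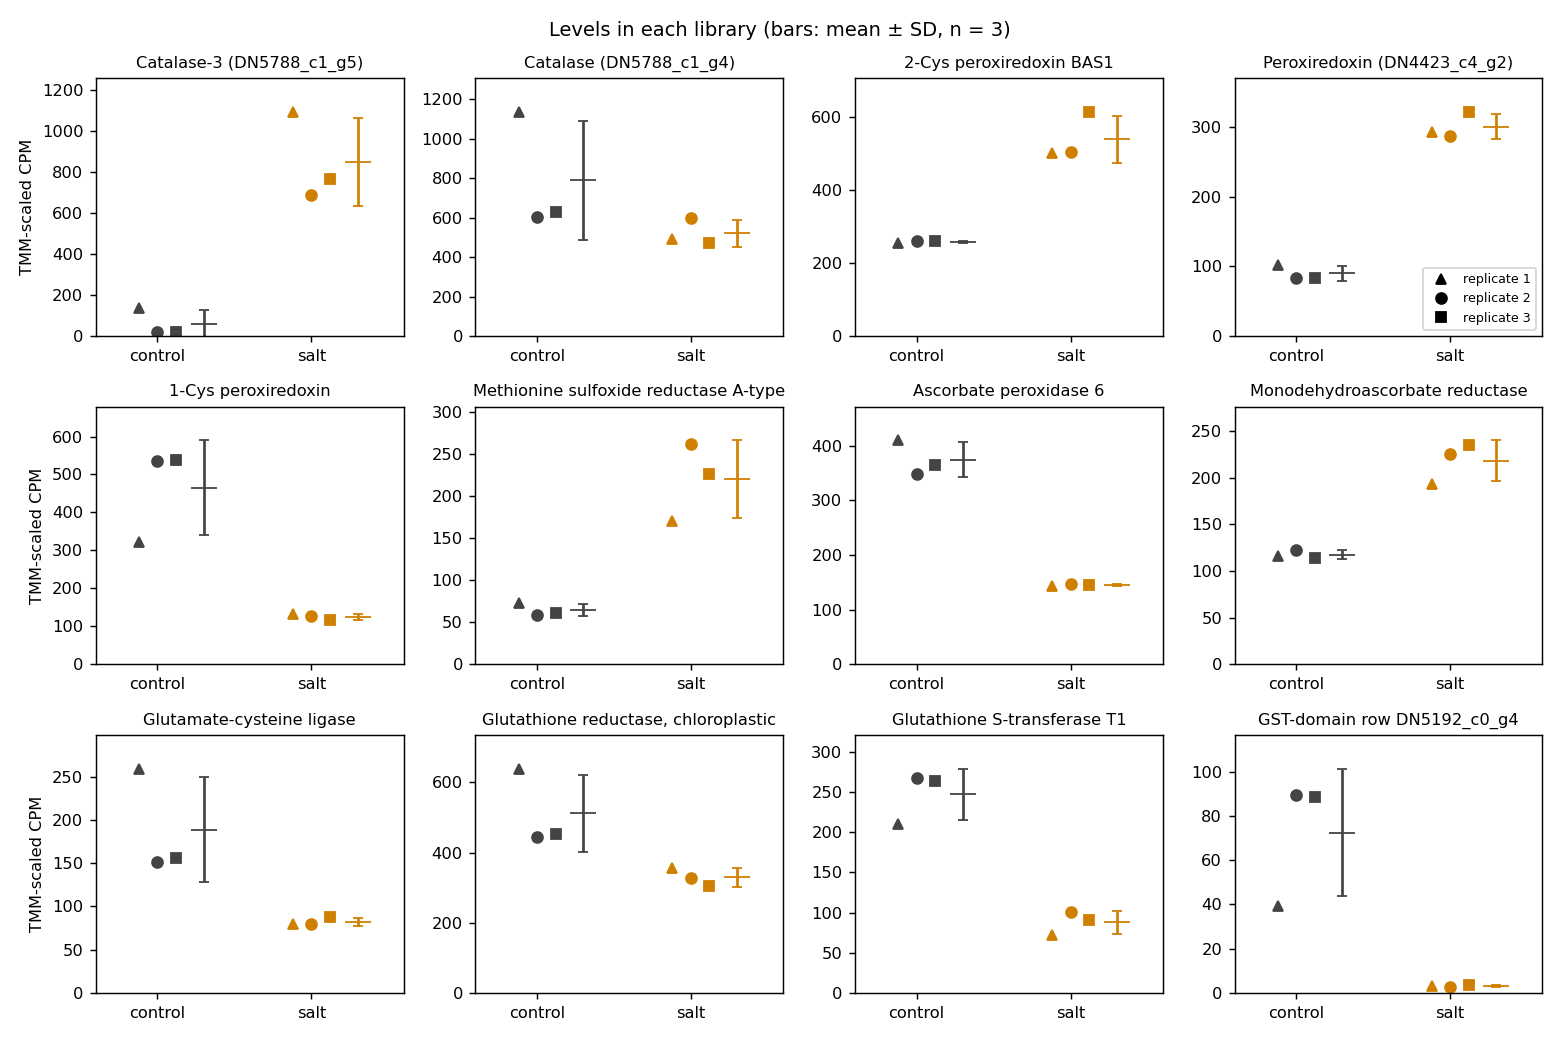
Each panel gives the TMM-scaled CPM of 1 row in the 3 control and 3 salt libraries, with the mean ± SD beside the points; the shape marks the replicate number, the axes start at 0 and the lower bar of the catalase-3 controls ends at the axis. Catalase-3 reached 689 CPM or more in every salt library against 138 CPM or less in the controls, and ascorbate peroxidase 6 stood at 144 to 147 CPM in salt.

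Peroxiredoxins, thiol peroxidases that are reduced again by thioredoxin, were raised in 3 of 6 tested rows and lowered in 1. DN3626_c0_g1 matches BAS1, the 2-Cys peroxiredoxin of chloroplasts. It measured 255, 258 and 260.2 CPM in control and 500.3, 502 and 613 CPM in salt. The controls spread by 2.88 CPM (SD, n = 3) under the TMM scaling, and more widely in the deposited FPKM, at 313 ± 38.7. The groups did not overlap, and the change was 1.06 (SE 0.13, adjusted p = 0.000528). DN4423_c4_g2 rose from 102, 83.9 and 83.3 CPM to 293, 288 and 322 CPM, a change of 1.74 (SE 0.13, adjusted p = 8.08e-05). DN6012_c2_g3 matches FAM213A, a peroxiredoxin-like protein described in vertebrates. Its level was 21.0, 14.5 and 13.5 CPM in control and 71.4, 81.5 and 70.7 CPM in salt, a change of 2.19 (SE 0.19, adjusted p = 0.000152). The cluster of this row also holds a glucose-6-phosphate dehydrogenase row, and the cluster sum changed by 0.57. The lowered row was DN5775_c0_g3, a 1-Cys peroxiredoxin, a type best known from plant seeds. It stood at 321, 535 and 538 CPM in control and 132, 127 and 118 CPM in salt. Control replicate 1 was the lowest control here, yet above all salt libraries, and the change was -1.89 (SE 0.22, adjusted p = 0.000425). DN4899_c2_g1, matching mitochondrial peroxiredoxin-5, was not called at -0.24 (adjusted p = 0.102). DN4769_c0_g3 was not called at -0.60 (adjusted p = 0.0529) and passed with the replicate number as a block (adjusted p = 0.0393).

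Rows with an AhpC-TSA or Redoxin domain but no peroxiredoxin name numbered 9, all tested. They share a thioredoxin-like fold, but the annotation gives them varied identities, among them a peroxiredoxin in KEGG (DN3905_c0_g1), a SCO1 homolog, a protein with NHL repeats, and rows with no description. DN3572_c0_g1 rose from 91.2, 79.5 and 70.9 CPM to 215, 148 and 156 CPM (1.10, SE 0.18, adjusted p = 0.00188), and DN3905_c0_g1 changed by 0.53 (SE 0.11, adjusted p = 0.00523). The row with the most counts, DN4912_c2_g1, measured 363, 228 and 218 CPM in control and 381, 431 and 422 CPM in salt. Its control replicate 1 lay close below the lowest salt library. The change of 0.61 (SE 0.21, adjusted p = 0.0437) lost its call without control replicate 2 (0.139), control replicate 3 (0.142), salt replicate 1 (0.0667), salt replicate 2 (0.111) or salt replicate 3 (0.108), and with rows under 300 bases left out (0.0520), and the cluster sum was at -0.38. The largest fall was in DN5611_c1_g4, at 101, 159 and 151 CPM in control and 35.7, 23.6 and 37.9 CPM in salt. No salt library reached a control, and the change was -2.08 (SE 0.25, adjusted p = 0.000481), against -0.26 for its cluster sum. DN4445_c0_g1 fell from 42.3, 70.4 and 65.0 CPM to 24.1, 28.8 and 33.8 CPM (-1.04, SE 0.22, adjusted p = 0.00671).

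Both steps of glutathione synthesis were lowered. Glutamate-cysteine ligase, the first and usually limiting enzyme, is DN5506_c1_g1. Its level was 259, 152 and 156 CPM in control and 79.5, 79.5 and 87.7 CPM in salt. Every salt library was below every control, with control replicate 1 the highest, and the change was -1.20 (SE 0.22, adjusted p = 0.00328). Glutathione synthetase, DN5252_c0_g5, measured 114, 177 and 139 CPM in control and 58.3, 73.9 and 90.4 CPM in salt. It changed by -0.95 (SE 0.22, adjusted p = 0.00819) without overlap, and the row also carries ankyrin repeats and a zinc finger.

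Glutathione reductase, which uses NADPH to reduce oxidised glutathione, was represented by 2 rows of one cluster. DN4539_c1_g1, matching a cytosolic enzyme, stood at 433, 337 and 341 CPM in control and 228, 239 and 244 CPM in salt, a change of -0.65 (SE 0.14, adjusted p = 0.00609). DN4539_c1_g2, matching a chloroplast enzyme, stood at 638, 444 and 452 CPM in control and 356, 328 and 304 CPM in salt. The groups did not overlap in either row. The second changed by -0.64 (SE 0.18, adjusted p = 0.0183), a call lost without salt replicate 2 (0.0643) or 3 (0.0796).

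The 2 glutathione peroxidase rows match the phospholipid hydroperoxide type, which acts on peroxidised membrane lipids and in plants is reduced mainly by thioredoxin. DN5338_c1_g1 measured 196, 155 and 154 CPM in control and 126, 109 and 121 CPM in salt (-0.51, SE 0.14, adjusted p = 0.0159). DN3244_c0_g1 measured 69.4, 55.3 and 56.4 CPM in control and 45.8, 39.4 and 44.2 CPM in salt (-0.49, SE 0.13, adjusted p = 0.0186). The groups did not overlap, but the falls were small. DN5338_c1_g1 lost its call without salt replicate 2 (0.0712) or 3 (0.0563). DN3244_c0_g1 lost it without salt replicate 2 (0.0771) or 3 (0.0592), with library totals (-0.29, adjusted p = 0.0626) and with no filter on low counts (0.0569).

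Methionine sulfoxide reductases repair oxidised methionine in proteins, the A type acting on one stereoisomer and the B type on the other. The A-type row DN4676_c2_g3 stood at 72.7, 59.3 and 61.4 CPM in control and 170.4, 262 and 226 CPM in salt. The salt libraries were all higher, and salt replicate 1 was the lowest of them. The change was 1.77 (SE 0.18, adjusted p = 0.000281). Of the B-type rows, DN4771_c1_g1 rose from 58.2, 51.9 and 49.6 CPM to 76.7, 85.7 and 73.8 CPM (0.56, SE 0.12, adjusted p = 0.00569). DN5508_c1_g2 fell from 569.9, 409 and 456 CPM to 298, 316 and 305 CPM (-0.64, SE 0.15, adjusted p = 0.00946). The second of these B-type rows also carries CAF1A, homeobox and LCM domains of other families.

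Glutathione S-transferases join glutathione to reactive compounds, and some have peroxidase activity. By name there were 6 rows, of which 3 were tested. DN5861_c3_g1, a theta-type (T1) match, stood at 211, 268 and 263 CPM in control and 72.2, 101 and 90.4 CPM in salt, and changed by -1.49 (SE 0.17, adjusted p = 0.000382). DN5145_c2_g2, a P-type match, was low throughout at 7.82, 4.45 and 4.78 CPM in control and 1.04, 2.40 and 2.61 CPM in salt (-1.49, SE 0.42, adjusted p = 0.0201), while its cluster summed to -0.03. Neither row overlapped between groups. The microsomal row DN5773_c1_g2, at 112, 64.1 and 58.6 CPM in control and 75.2, 76.9 and 74.9 CPM in salt, was not called at -0.05 (adjusted p = 0.879). Without control replicate 1 it stood at 0.31 (adjusted p = 0.0220). The 3 untested rows had counts of 5 to 9 in the replicate 1 libraries of both groups and 0 in the others.

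The 15 rows with a glutathione S-transferase domain and no such name had a median change of -0.98, from -4.60 to 2.53. Some have other descriptions, and some are assigned to glutathione S-transferase in KEGG, DN5192_c0_g4 and DN5558_c3_g1 among them. The largest fall was in DN5192_c0_g4, at 39.3, 89.7 and 88.5 CPM in control and 2.91, 2.54 and 3.48 CPM in salt. Every salt library was far below the lowest control, and the change was -4.60 (SE 0.37, adjusted p = 0.000109). The 8 rows of its cluster, which include a DNA repair endonuclease row and a complex I assembly row, summed to -0.13. DN5721_c1_g1, alone in its cluster, fell from 60.5, 118 and 134 CPM to 10.5, 13.8 and 11.7 CPM (-3.12, SE 0.32, adjusted p = 0.000254). DN5092_c1_g2, the row with the most counts, fell from 691, 464 and 486 CPM to 126, 128 and 129 CPM (-2.10, SE 0.18, adjusted p = 0.000137). DN5651_c2_g1 fell from 669, 433 and 412 CPM to 149, 138 and 145 CPM (-1.81, SE 0.21, adjusted p = 0.00041). Groups did not overlap in these rows, and control replicate 1 was the lowest control in the first pair and the highest in the second. DN5119_c1_g2 (-1.31), which also matches a histone acetyltransferase, and DN4863_c3_g4 (-1.03) were lowered too, with adjusted p of 0.000177 and 0.000188. DN4714_c0_g6 changed by -1.44 (SE 0.34, adjusted p = 0.00932) and carries WD40 repeats; its cluster, which holds fatty acid desaturase rows, summed to 1.44. DN5558_c3_g1 changed by -0.98 (SE 0.16, adjusted p = 0.00171) and best matches a mitochondrial carrier; its cluster, which holds a chlorophyll synthase row, summed to 0.49 (adjusted p = 0.0135).

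The largest rise among these domain rows was in DN3621_c0_g2, at 31.9, 5.05 and 4.59 CPM in control and 92.8, 76.8 and 72.3 CPM in salt. As for catalase-3, control replicate 1 was far above the other controls and still below all salt libraries. The change was 2.53 (SE 0.74, adjusted p = 0.0225), and without control replicate 1 it was 4.07 (adjusted p = 1.89e-05), or 16.8-fold. The call was lost without control replicate 2 (0.05005) or 3 (0.0505) or salt replicate 1 (0.0597) or 2 (0.0535). DN5698_c4_g1 (0.39, adjusted p = 0.0277) and DN4471_c0_g1 (0.55, adjusted p = 0.0446) were raised, and with the replicate block their adjusted p were 0.0522 and 0.0531; with no filter on low counts they were 0.0515 and 0.0528. Without control replicate 2 or 3 these were 0.109 and 0.111 for DN5698_c4_g1 and 0.133 and 0.104 for DN4471_c0_g1. Without salt replicate 2 they were 0.0864 and 0.131, the call of DN5698_c4_g1 was also lost without salt replicate 3 (0.0792), and that of DN4471_c0_g1 without salt replicate 1 (0.0919).

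The other 18 rows named for glutathione, 15 of them tested, comprised 5 raised, DN4604_c1_g8 among them, 2 lowered and 8 not called. The route that oxidises formaldehyde bound to glutathione had 2 raised rows. Alcohol dehydrogenase class-3, DN4127_c0_g2, rose from 85.0, 78.8 and 74.4 CPM to 194, 163 and 165 CPM (1.13, SE 0.12, adjusted p = 0.000293). S-formylglutathione hydrolase, DN3036_c0_g1, which releases formate and glutathione, rose from 53.6, 32.6 and 30.3 CPM to 91.6, 87.2 and 85.8 CPM (1.18, SE 0.22, adjusted p = 0.00372). The groups did not overlap in these rows. Another row, the S-(hydroxymethyl)glutathione dehydrogenase DN5263_c2_g1, stood at 682, 226 and 223 CPM in control and 868, 514 and 545 CPM in salt. Its control replicate 1 lay above salt replicates 2 and 3, and it was not called (0.77, SE 0.48, adjusted p = 0.205); the replicate block gave 0.94 (adjusted p = 0.0144), and leaving out control replicate 1 gave 1.52 (adjusted p = 0.00233).

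The glyoxalase route, in which lactoylglutathione lyase and hydroxyacylglutathione hydrolase turn methylglyoxal into lactate, had 6 tested rows. The hydrolase row DN4604_c1_g6 rose from 33.3, 26.9 and 22.7 CPM to 61.0, 61.0 and 55.3 CPM (1.10, SE 0.16, adjusted p = 0.00122). DN4604_c1_g8, whose best match is a bacterial hydrolase, had 6 counts in all controls together and 77 in salt. That is a ratio of 10.9 with a 95% interval of 4.80 to 30.7 that covers counting error only. The row had at most 3 counts in a control library and passed the filter only through the salt libraries, so it had to differ and no p is given. The lyase row DN3117_c0_g1 changed by 0.54 (SE 0.14, adjusted p = 0.0142), a call lost without control replicate 2 (0.0554) or 3 (0.0594). A second lyase row, DN5997_c1_g2, which also carries a YGGT domain, was not called at 0.35 (adjusted p = 0.200). It stood at 0.63 without control replicate 1 (adjusted p = 0.00372). The chloroplast-type hydrolase row DN4164_c0_g1 was not called at -0.42 (adjusted p = 0.0680). DN4713_c2_g1, matching DJ-1 homolog D, lists only a HEAT domain, which is of another family. It changed by -0.36 (SE 0.10, adjusted p = 0.0223), and its adjusted p was 0.0562 to 0.0935 without any 1 of control replicates 2 and 3 or the salt libraries. The call was also lost with library totals (-0.18, adjusted p = 0.263), with no filter on low counts (0.117) and in limma on FPKM (0.0901).

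Transporters of glutathione conjugates had 4 tested rows. DN6011_c2_g2, matching the fission yeast transporter abc2, stood at 1346, 1013 and 1028 CPM in control and 331, 321 and 337 CPM in salt. No salt library came near a control, and the change was -1.78 (SE 0.16, adjusted p = 0.000157). The row also carries a NUDIX domain. The other 3 transporter rows lay between -0.06 and 0.12 and were not called. Phytochelatin synthase, which builds metal-binding peptides from glutathione, is DN5105_c0_g2. It measured 11.0, 19.4 and 24.5 CPM in control and 25.0, 29.9 and 29.5 CPM in salt. The groups did not overlap, the lowest salt library being just above the highest control, and the change of 0.62 (SE 0.28, adjusted p = 0.0980) was not called but passed with the replicate block (adjusted p = 0.0313).

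The 13 members that did not pass the filter had at most 14 counts in any library. Besides the 3 glutathione S-transferase rows, they were 3 peroxiredoxin rows with vertebrate names, of which that of peroxiredoxin-2 had 0 counts in all 6 libraries, 2 catalase rows, 2 superoxide dismutase rows, and 1 row each of alcohol dehydrogenase class-3, S-formylglutathione hydrolase and an ABC transporter. A count of 0 allows up to 3 counts, or 0.131 to 0.189 CPM.

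Levels can be compared between rows only per length, for which the deposited FPKM was used. In control the highest mean belonged to the superoxide dismutase [Mn] row DN4194_c0_g1, at 438 ± 48.7 FPKM (SD, n = 3). The 2-Cys peroxiredoxin row DN3626_c0_g1 followed at 313 ± 38.7, the catalase row DN5788_c1_g4 at 308 ± 83.5, the chloroplast glutathione reductase row DN4539_c1_g2 at 307 ± 39.2 and the abc2 row at 303 ± 21.6 FPKM. The means from the second to the fifth differed by less than their SD. In salt the 2-Cys peroxiredoxin row was highest at 670 ± 90.8 FPKM. DN4423_c4_g2 was next at 381 ± 32.2 FPKM, from rank 18 in control, and the A-type methionine sulfoxide reductase row followed at 360 ± 77.3 FPKM, from rank 17. DN4194_c0_g1 stood at 320 ± 13.4 FPKM and catalase-3 at 307 ± 84.4 FPKM, and from the second to the fifth each overlapped its neighbour in this order between libraries. Catalase-3 had ranked 55 of the tested members in control, at 20.9 ± 20.7 FPKM.

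**Figure D3:**
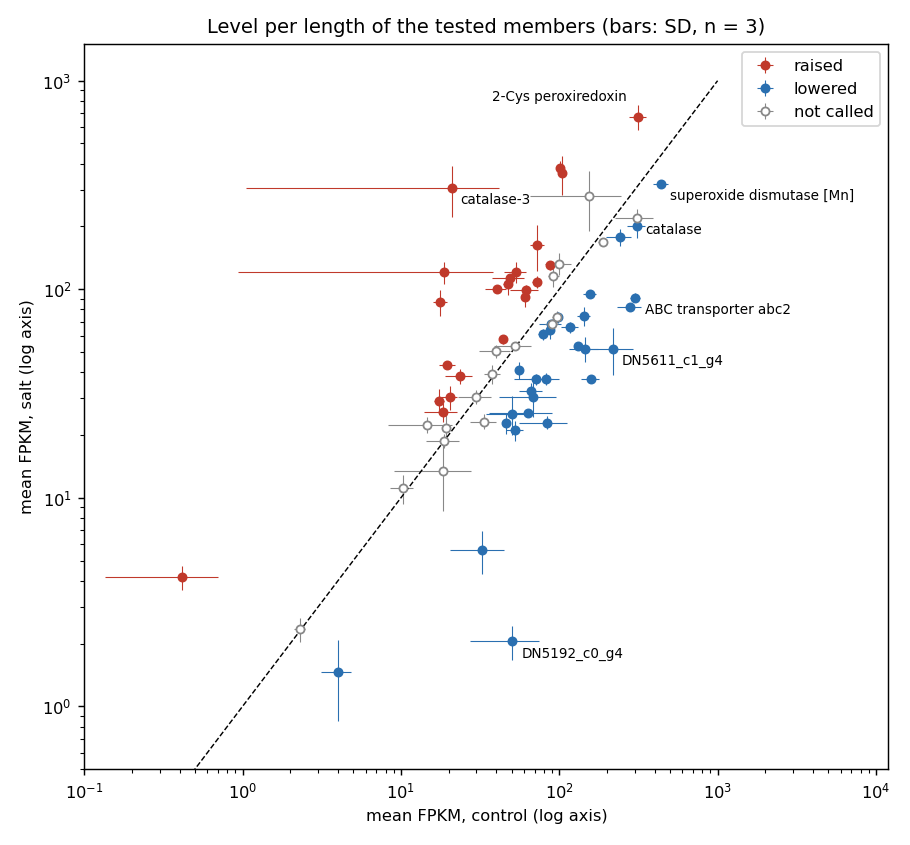
Each point is 1 tested member at its mean deposited FPKM in control (horizontal, log axis) and in salt (vertical, log axis), with bars of 1 SD over 3 libraries, shortened for rows whose SD is about as large as the mean; the dashed line marks equal levels. The 2-Cys peroxiredoxin is highest in salt at 670 FPKM, and catalase-3 moves from 20.9 to 307 FPKM.

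The direction of change was compared between the replicate 1 pair and the other libraries. The median change of the tested members was -0.29 in the replicate 1 pair and -0.06 in replicates 2 and 3. All 51 called members had the same sign in both. They were called from these same libraries, so few changes of sign were likely in advance, here and with a library left out. Leaving out each library in turn, 38 of the 51 kept their call throughout, 13 lost it without at least 1 library, and 0 changed sign. No call was lost without control replicate 1, and 10 were lost without salt replicate 2.

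Assembled rows of one cluster can split the reads of one gene or join different genes. The counts were therefore also summed by cluster, where 30.1% of 5848 tested clusters were raised and 29.7% lowered. Of the called members 11 were alone in their cluster. For the other 40, the cluster sum was called the same way in 31, not called in 6, and called the other way in 3, which are DN5308_c4_g1, DN4714_c0_g6 and DN5558_c3_g1. In addition 17 members carry a domain of another protein family on the same assembled row. Of these 3 were raised and 10 lowered, and the 52 tested members without such a domain gave 19 raised and 19 lowered.

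**Figure D4:**
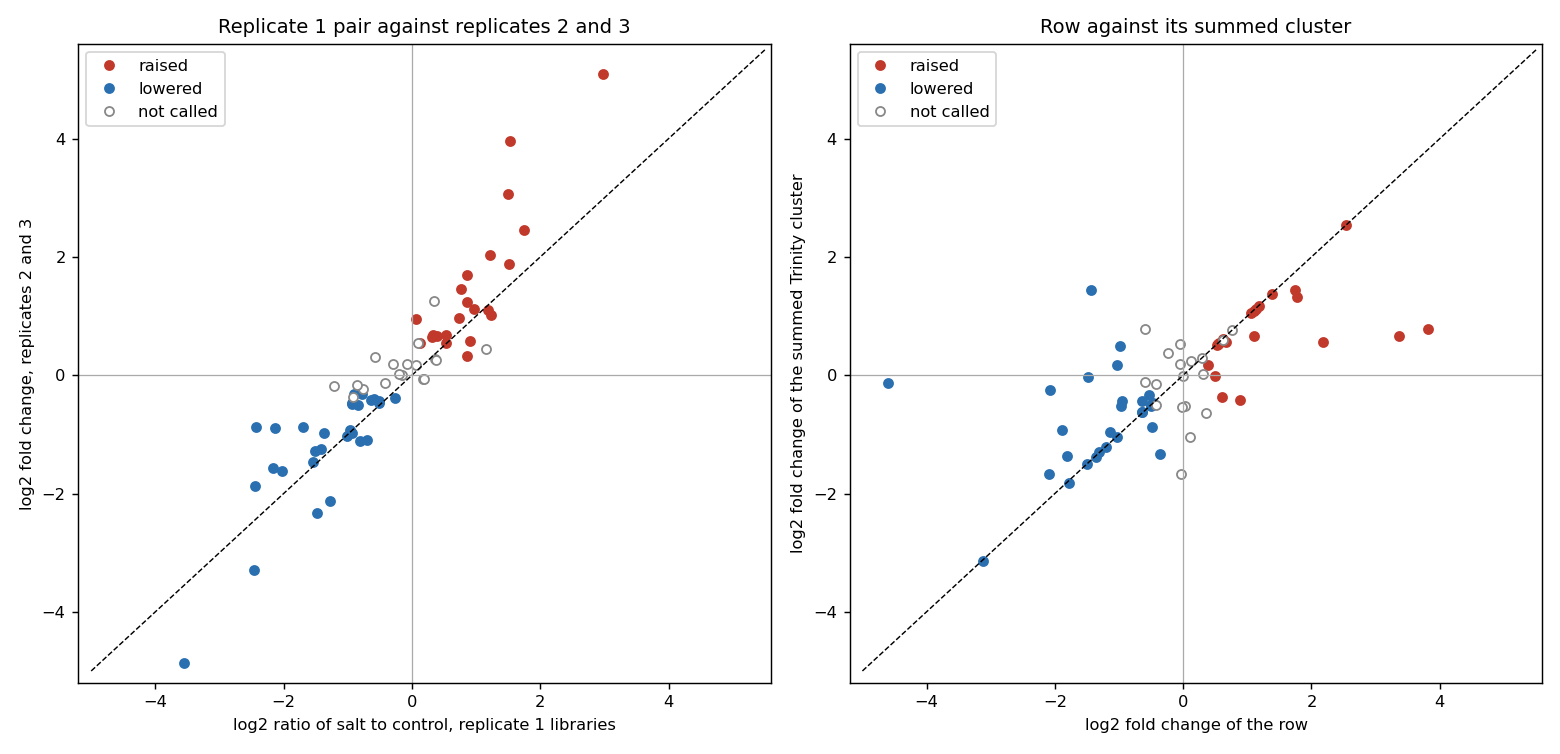
Left, the log2 ratio of salt to control in the replicate 1 libraries against the log2 fold change in replicates 2 and 3; right, the log2 fold change of each row against that of its summed Trinity cluster, with dashed lines at equal values. All 51 called members, which were called from these same libraries, keep their sign on the left. On the right 3 called rows have a cluster sum called the other way.

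The authors' deposited table marks 33.8% of the tested rows as significant. Among the tested members it marks 13 as up and 15 as down, and all 28 were called in the same direction here. Both rest on the same libraries, so this agreement was likely in advance. The mark is stricter than a call here, since DN4664_c2_g6, called here at -0.97, is not marked. Its 33.8% is therefore to be read beside the 15.9% raised and 17.7% lowered at least 2-fold, not the 57.8% called.

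Genes that feed or surround these enzymes were counted from lists, to be read beside the 29.1% raised and 28.7% lowered among all tested rows. Thioredoxins reduce peroxiredoxins, but the thioredoxin list was taken by name, for thioredoxin or glutaredoxin, and not all its rows need do so. Of its 17 tested rows 7 were raised and 5 lowered, with a median of 0.29. The chloroplast-type monothiol glutaredoxins S14 (DN3285_c0_g1) and S12 (DN3664_c0_g1) changed by 1.70 (SE 0.14, adjusted p = 0.000101) and 1.54 (SE 0.12, adjusted p = 9.77e-05). Also raised were thioredoxin-like 2 (DN4480_c2_g5, 2.60, SE 0.49, adjusted p = 0.00377) and thioredoxin reductase 1 (DN5715_c4_g3, 0.91, SE 0.12, adjusted p = 0.000749). The other raised rows match PLP3A (DN4658_c0_g1, 0.94), CITRX (DN5774_c2_g1, 0.39) and glutaredoxin-C8 (DN5352_c3_g2, 0.32). Among the lowered rows were thioredoxin-like 1-2 (DN5578_c0_g1, -1.27, SE 0.19, adjusted p = 0.00127) and thioredoxin Y1 (DN4562_c0_g1, -1.04, SE 0.09, adjusted p = 0.000163), both chloroplast types. Thioredoxin-like 2-2 (DN4536_c1_g1) changed by -0.68 (SE 0.16, adjusted p = 0.00845). Mitochondrial thioredoxin O1 (DN5873_c0_g1) changed by -0.82 (SE 0.20, adjusted p = 0.0116), a call lost without salt replicate 2 (0.0510) or 3 (0.0534). The NADPH-dependent thioredoxin reductase with its own thioredoxin domain (DN4570_c3_g1), which reduces 2-Cys peroxiredoxin in plant chloroplasts, changed by -0.59 (SE 0.15, adjusted p = 0.0138), a call lost without salt replicate 2 (0.0585). The list also holds a beta-amylase row that matched by its description (DN5214_c0_g8). It was not called at 0.29, and its value is the median of the list.

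Of 8 rows listed for the path from sulfur to cysteine, a building block of glutathione, 3 were raised, 1 was lowered and 4 were not called (median 0.31). The lowered row is a serine acetyltransferase, DN5210_c2_g3 (-0.60, SE 0.18, adjusted p = 0.0223). Sulfite reductase, DN5788_c1_g3, rose from 159 ± 3.72 to 433 ± 51.6 CPM (1.44, SE 0.13, adjusted p = 0.000149), and cysteine synthase, DN5774_c2_g3, from 44.4 ± 4.44 to 84.4 ± 2.04 CPM (0.93, SE 0.11, adjusted p = 0.000576). The remaining raised row of this list, DN5879_c4_g1 (0.36), is named for a step in selenocysteine tRNA synthesis and not for a step to cysteine. In ascorbate synthesis GDP-mannose epimerase, DN5312_c0_g1, was lowered (-0.85, SE 0.17, adjusted p = 0.00447) and GDP-galactose phosphorylase, DN4504_c0_g6, was raised (0.74, SE 0.12, adjusted p = 0.0021).

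Among 8 rows that supply NADPH, 3 were raised and 1 lowered (median 0.14). NADP-type isocitrate dehydrogenase, DN5329_c0_g1, changed by 0.995 (SE 0.15, adjusted p = 0.00149) and glucose-6-phosphate dehydrogenase, DN6012_c2_g1, by 0.65 (SE 0.12, adjusted p = 0.00289). The lowered row was an NADP-malic enzyme, DN5710_c1_g3, at -2.14 (SE 0.28, adjusted p = 0.000769). Rows of this enzyme did not move together. The remaining raised row, DN3852_c0_g1, is a chloroplast-type NADP-malic enzyme (0.39, SE 0.10, adjusted p = 0.0130). DN5710_c1_g4, in the cluster of the lowered row, was not called at 0.04 (adjusted p = 0.804), nor was DN5240_c1_g1 at -0.03 (adjusted p = 0.856).

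Of 9 rows for other peroxidases and iron storage only 2 were tested, and both were lowered. Ferritin-3 (DN4828_c1_g5), an iron store, changed by -1.25 (SE 0.18, adjusted p = 0.00109) and cytochrome c peroxidase (DN5727_c0_g2) by -0.64 (SE 0.15, adjusted p = 0.0104), the second call being lost without salt replicate 3 (0.0516). Of 13 tested rows for enzymes that form peroxide or superoxide 8 were lowered, where 28.7% of all tested rows were, 0 were raised, where 29.1% were, and 5 were not called, with a median of -0.87. A primary amine oxidase (DN5507_c0_g2) fell from 665 ± 228 to 229.8 ± 22.8 CPM (-1.53, SE 0.25, adjusted p = 0.00181), and an acyl-CoA oxidase (DN5705_c1_g1), which forms peroxide in peroxisomal fatty acid oxidation, from 493 ± 26.6 to 216 ± 51.0 CPM (-1.19, SE 0.18, adjusted p = 0.00153). Most of the lowered rows match acyl-CoA oxidases, so the count largely reflects a single enzyme family. No row of the list is named for an NADPH oxidase, glycolate oxidase or alternative oxidase. The median was -1.40 in the replicate 1 pair and -0.54 in replicates 2 and 3. The list includes a row named for a histone demethylase, which was not called.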

How the data were processed

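Counts per row for 6 libraries, FPKM, and log2 fold changes with p-values are in the table the authors deposited, per the file headers. Rows are Trinity-style assembled genes, annotated by their best matches. For the aligner, counter and test of the authors: not given in the sources used here. Per the labels' protocols TRIzol was used for RNA; the design text names Illumina and the library protocol names Proton sequencing, so the platform is unsettled. Deposited counts were fitted in R 4.3.3 with edgeR 4.0.16 (TMM, filterByExpr with a minimum count of 10, quasi-likelihood test, condition only, Benjamini-Hochberg adjustment over all tested rows, threshold 0.05); DESeq2 1.42.0 and limma 3.58.1 (log2 of FPKM plus 0.1) served as alternatives. The fits were tested on simulated counts with 200 changed rows. edgeR recovered 62% of the 2-fold and 98% of the 4-fold changes with 9 false calls. DESeq2 recovered 62% and 96% with 18 false calls. The simulation had the same spread for all rows and no library standing apart, unlike these data. The authors' deposited log2 values and p-values were used only to count rows they mark significant, and deposited FPKM only for levels and the limma fit.

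The members, the lists and the tests were chosen with earlier results of these data known. Genes were named by a rule: in each role the most abundant row and that with the smallest p, all tested rows of roles with 3 or fewer, the 6 called rows without overlap that rose most and the 6 that fell most, and called rows whose cluster sum is called the other way. It named 34 genes. A further 21 members and 17 genes of other lists were chosen after their values were seen.

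Deviations from the group means of libraries with the same replicate number correlated at 0.35, 0.14 and 0.25 for replicates 1, 2 and 3, so the numbers were treated as pairs in an alternative fit with the replicate number as a block. What the numbers stand for is not given. No libraries were duplicates: the smallest chi-square per gene was 5.28. Depth was 16460455 to 24065705 counts a library; intervals and floors cover counting error only.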

Additional observations from a re-analysis of the deposited data

How the results depend on the processing

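Counts of raised and lowered members stayed within 1.5 times of 22 and 29 under other scalings, tests, filters and cluster sums. At least 2-fold changes left 12 raised and 16 lowered. Leaving out rows with a domain of another family, chosen after seeing the data, left 19 lowered. Leaving out 1 library gave 17 to 26 raised, 22 to 30 lowered and a median from -0.222 to -0.0354; the median was 0.13 with library totals, which moved all rows by a similar amount. With the replicate block 22 were raised and 30 lowered, with a median of -0.06. The block ended the calls of DN5698_c4_g1 and DN4471_c0_g1, gave calls to DN4769_c0_g3, DN5263_c2_g1 and DN5105_c0_g2, and changed no other call. A batch term for replicate 1, chosen after seeing the data, gave 27 raised and 31 lowered.

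For the named genes 1223 values were recomputed: 1128 kept direction and side of the threshold, 55 lost the call, 23 gained one and 17 changed sign. Summing clusters, which adds other rows, gave DN4570_c3_g1 0.22, DN4714_c0_g6 1.44, DN4863_c3_g4 0.17, DN4899_c2_g1 0.38, DN4912_c2_g1 -0.38, DN5308_c4_g1 -0.42, DN5558_c3_g1 0.49, DN5773_c1_g2 0.54, DN5774_c2_g3 -0.061, DN5788_c1_g4 0.78 and DN5997_c1_g2 -0.63. DN5773_c1_g2, not called at -0.05, also stood at 0.16 with library totals, 0.0143 with the block, 0.0129 with the batch term, 0.31 without control replicate 1 or with replicates 2 and 3 only, and 0.0647 in limma on FPKM. The cause was not tested. Rows under about 10 counts a library could not be tested, and 3 libraries a group limit small changes.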
